A study of Mus musculus with 6 samples.

Results

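Genes of blood and lymphatic endothelium were followed in inguinal (subcutaneous) white fat of mice with an adipocyte deletion of Igf1r, the gene of the insulin-like growth factor 1 receptor. The genes were taken by symbol from the deposited table: 34 symbols were named, and all 34 were among its 14861 genes. Of these, 31 are genes of blood endothelium, including the tip-cell genes Esm1 and Dll4, and 3 are lymphatic genes, Prox1, Flt4 and Mmrn1. The 2 groups had 3 libraries of polyadenylated RNA each. Controls, called Flox, were littermates carrying the floxed Igf1r allele (B6;129-Igf1rtm2Arge/J). Knockout mice, called AdIGF1RKO, carried that allele and Cre recombinase under the adiponectin promoter (B6;FVB-Tg(Adipoq-Cre)1Evdr/J), which is active in adipocytes, so that endothelial cells are not the intended target of the deletion. Both groups were on normal chow, in which fat supplied 10% of the energy, for 24 weeks, with an overnight fast before collection. Ages and sexes are not stated in the labels, and the labels number the libraries of each group 1 to 3 without naming the animals.

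Endothelial cells line blood and lymph vessels. They are held together by junction proteins such as VE-cadherin, respond to vascular endothelial growth factors, angiopoietins and Notch ligands through dedicated receptors, and owe much of their identity to transcription factors of the ETS and SOX families. In white fat, capillaries lie against nearly every adipocyte and carry the platform on which lipoprotein lipase releases fatty acids. New vessels are led by tip cells, and lymphatic vessels are specified by the transcription factor PROX1. Because bulk tissue was sequenced, a change in the number of endothelial cells and a change in endothelial RNA per cell cannot be told apart in any value below.

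Igf1r itself, at 6.26 ± 0.343 scaled CPM in Flox against 5.41 ± 0.639 in AdIGF1RKO (SD, n = 3 per group, as for every mean below), overlapped between groups and did not pass the limma test (log2 difference -0.18, adjusted p = 0.998). Fat holds cells other than adipocytes, in which this Cre is not meant to act. Scaled CPM are reads per 1000000 of a library of geometric mean size after median-ratio scaling. The table held 60617147 to 70695527 reads per library, and its values, named FPKM, were whole reads over a divisor per library and were not divided by gene length. Markers of skeletal muscle, 19 of 19 found, summed to between 1066 and 169612 scaled CPM in Flox and between 506 and 49667 in AdIGF1RKO. Flox 3 and AdIGF1RKO 3 were the libraries richest in them, with 13.5% and 4.89% of all reads, and AdIGF1RKO 1 was the poorest with 0.0552%. Pecam1 and Cdh5, taken here as general endothelial genes, were well expressed in all 6 libraries, each with at least 4674 reads. The endothelial genes together took 0.147% (Flox 3) to 0.274% (AdIGF1RKO 1) of the reads.

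No endothelial gene passed the limma test. Of the 33 genes with a mean of at least 1 scaled CPM, 0 had an adjusted p under 0.05 (limma with Benjamini-Hochberg adjustment over 12993 genes; 0.0% of all tested genes did). Prox1 was below that level and was not tested. At an unadjusted limma p under 0.05 there were 2 higher, Erg and Robo4, against 1.83% of all tested genes, and 0 lower, against 1.13%. In either direction 2.96% of all tested genes had such a p, and 2 of 33 is 6.06%. On the recovered reads, the quasi-likelihood test of edgeR called 0 of the 33 (0.0% of all genes) with 2 at an unadjusted p under 0.05 (2.91% of all genes). DESeq2 called 0 of the 33 (0.177% of all genes) with 3, Erg, Robo4 and Notch4, at an unadjusted p under 0.05 (3.8% of all genes).

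The differences were small and mostly of 1 sign. Of the 33 genes 29 had a positive log2 difference, 87.9% against 44.8% of all tested genes, and the median was 0.16 on the log2(scaled CPM + 1) scale against -0.02 for all tested genes. In 9 genes each AdIGF1RKO library was higher than each Flox library, 27.3% against 4.41% of all tested genes, and in 0 genes each was lower, against 3.86%. The 9 genes were Pecam1, Cdh5, Esam, Ecscr, Emcn, Robo4, Notch4, Erg and Nos3. Endothelial genes of 1 tissue share their cells, so these counts are not counts of independent measurements. The genes were also chosen with earlier results of these data known, so the shares only describe this list. The size of the lean depended on 2 libraries, and its uncentred value on the scaling. With the authors' own divisors all tested genes had a median of -0.17 and 14.8% of them were positive. The endothelial genes then had a median of 0.01 with 18 of 33 positive, and relative to all tested genes a median of 0.18 with 29 of 33 positive. Under those divisors 0 of the 33 lay above Flox without overlap, against 0.954% of all tested genes. Without Flox 3 the median was 0.10 with 21 of 33 positive (50.5% of all tested genes), and without AdIGF1RKO 1 it was 0.10 with 24 of 33 positive. Without both of these, the libraries with the most and the least muscle RNA, 18 of 33 were positive with a median of 0.01, and 51.1% of all tested genes were positive.

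**Figure D1:**
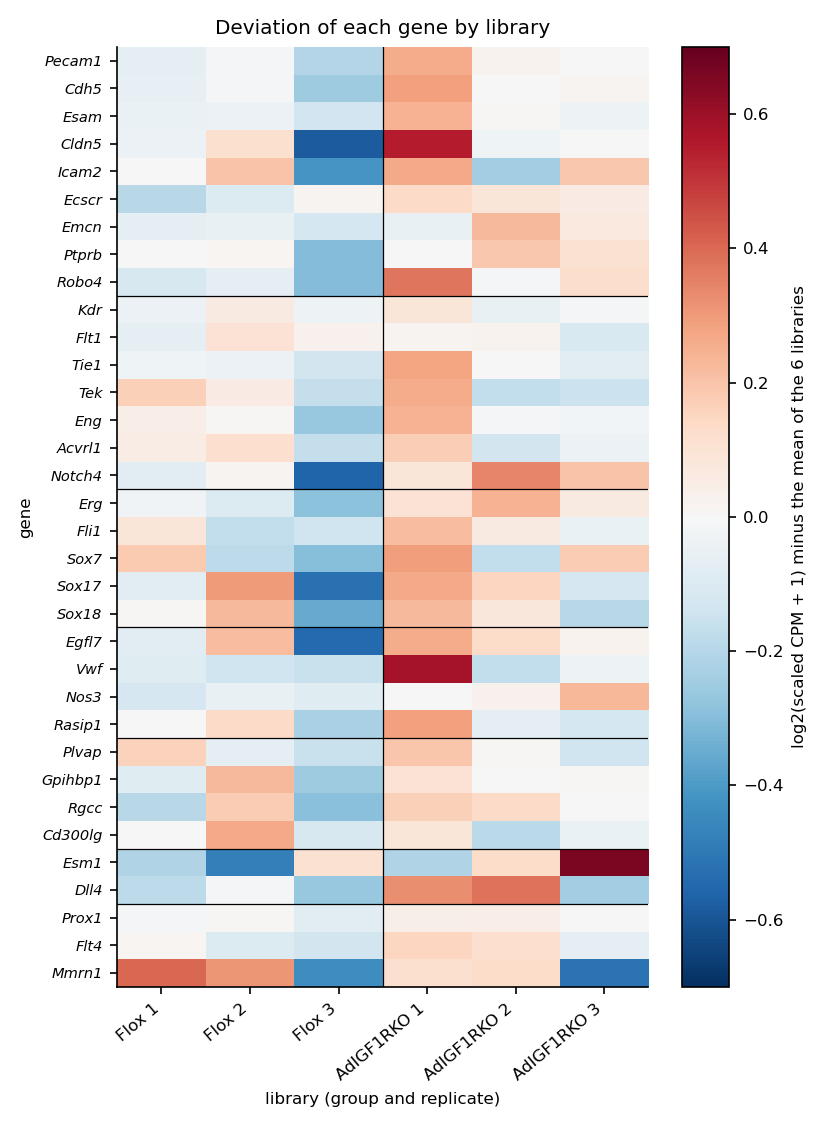
Deviation of each of the 34 endothelial genes from its mean over the 6 libraries, in log2(scaled CPM + 1), with genes in rows grouped by role (black lines) and libraries in columns. The Flox 3 column is mostly blue (median over the 33 tested genes -0.23) and the AdIGF1RKO 1 column mostly red (median 0.21), while the other 4 columns have medians between -0.04 and 0.02.

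Much of the spread over the 6 libraries lay in a pair of them. AdIGF1RKO 1 was the highest of the 6 libraries for 20 of the 33 genes, against 15.4% of all tested genes, and Flox 3 was the lowest for 23, against 26.2%. For 15 genes both held. The median deviation of the 33 genes from their 6-library mean was -0.04, 0.01 and -0.23 in Flox 1, 2 and 3, and 0.21, 0.02 and -0.01 in AdIGF1RKO 1, 2 and 3. Thus Flox 1, Flox 2, AdIGF1RKO 2 and AdIGF1RKO 3 lay close together, and a single library of each group stood apart, in opposite directions. Flox 3 was also the library richest in muscle markers and AdIGF1RKO 1 the poorest, and with the summed muscle markers as a covariate the median was 0.13, with 24 of 33 positive. Markers of other cell types were also low in Flox 3: the median deviation there was -0.41 for 9 tested lymphocyte and lymph node markers, -0.37 for 15 macrophage, -0.19 for 12 pericyte and smooth muscle, -0.18 for 10 fibroblast and -0.11 for 10 adipocyte markers, next to -0.004 for all tested genes. In AdIGF1RKO 1 the same medians were 0.26, -0.04, 0.16, 0.10 and 0.07. By summed level, macrophage and fibroblast markers were lowest in Flox 3, but pericyte and smooth muscle markers were highest there, at 1521 scaled CPM. Adipocyte markers summed to 43690 in Flox 3, within the range of the other libraries. Summed levels of these lists overlapped between the groups (macrophage 2048 to 3181 scaled CPM in Flox and 2345 to 4008 in AdIGF1RKO, pericyte and smooth muscle 1033 to 1521 and 910 to 1192, fibroblast 6873 to 8651 and 7052 to 8142, adipocyte 40303 to 51850 and 34623 to 43202), all of their markers being in the table. The exception was the lymphocyte and lymph node list, 13 of 16 in the table without Glycam1, Madcam1 and Cr2, which summed to 63.4 to 89.4 in Flox and 50.7 to 58.9 in AdIGF1RKO. Most single markers of that list did not follow its sum. Of the 9 tested, 6 were higher in AdIGF1RKO and 3 lower, and the median log2 difference was 0.15. The groups were separate for 1 of these markers with AdIGF1RKO higher, and for 0 with AdIGF1RKO lower. The part of all these lists in the endothelial values was not tested.

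**Figure D2:**
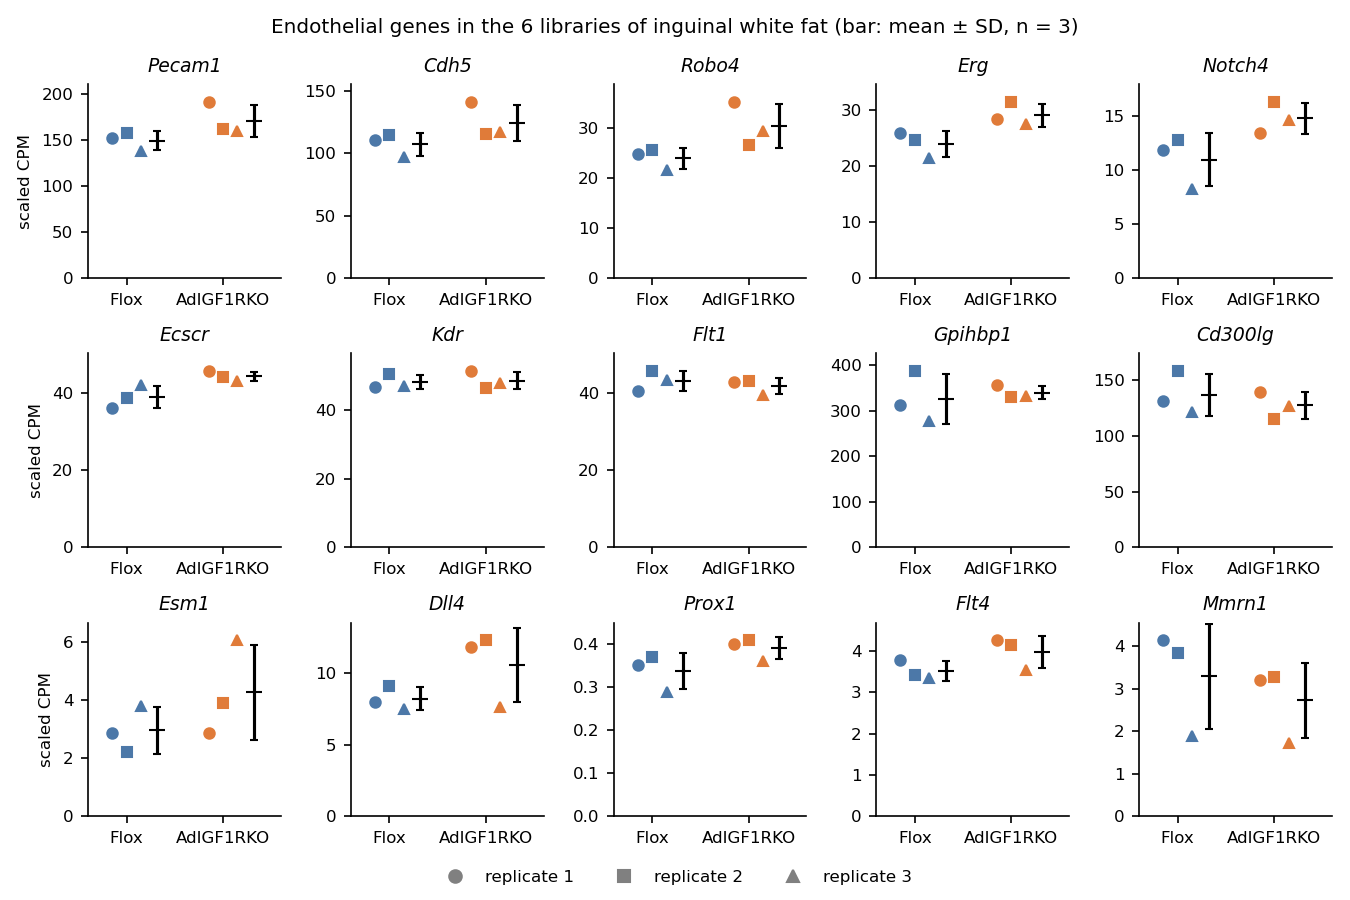
Scaled CPM of 15 endothelial genes in each library of Flox (blue) and AdIGF1RKO (orange), with marker shape giving the replicate number and the black bar the mean ± SD (n = 3). Each y axis starts at 0. Robo4, Erg, Notch4 and Ecscr show separate groups, Kdr and Flt1 are nearly level, and the tip-cell and lymphatic genes overlap.

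Junction and surface proteins held most of the genes with separate groups. All 9 had a positive log2 difference, from 0.14 for Icam2 to 0.34 for Cldn5, and in 6 of 9 the groups did not overlap. Pecam1, the adhesion molecule CD31 of endothelial contacts, had 152, 158 and 139 scaled CPM in Flox 1, 2 and 3 and 192, 162 and 160 in AdIGF1RKO 1, 2 and 3. The lowest AdIGF1RKO value lay just above the highest Flox value, at a log2 difference of 0.19 (standard error 0.11, adjusted p = 0.998, limma). Cdh5, which encodes VE-cadherin of adherens junctions, had 111, 114 and 96.8 in Flox and 141, 115 and 117 in AdIGF1RKO. Again the groups were separated by little, with Flox 2 and AdIGF1RKO 2 nearly equal, and the difference was 0.21 (standard error 0.12). Esam, an adhesion molecule of tight junctions, had 101.97, 102.56 and 95.87 in Flox and 124.93, 106.18 and 102.95 in AdIGF1RKO. Emcn, endomucin of the luminal surface, had 58.36, 58.84 and 56.01 in Flox and 58.93, 71.79 and 64.05 in AdIGF1RKO. For both genes the gap between the groups was smaller than the spread within either group. Ecscr, a surface protein of endothelial cells, had 36.2, 38.9 and 42.1 in Flox and 45.8, 44.2 and 43.3 in AdIGF1RKO, a difference of 0.18 in which Flox 3 was the highest Flox library.

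Robo4, a receptor that stabilises vessels and restrains leakage, had the smallest p of the surface genes. Its values were 24.8, 25.7 and 21.7 scaled CPM in Flox and 35.3, 26.8 and 29.4 in AdIGF1RKO. The groups did not overlap, and AdIGF1RKO 1 was the highest by a wide margin. The means were 24.1 ± 2.12 and 30.5 ± 4.35, the log2 difference was 0.32 (standard error 0.13, 95% interval 0.01 to 0.64) and the unadjusted limma p was 0.0464. Without AdIGF1RKO 1 the difference was 0.22, without Flox 3 it was 0.25, and without both 0.15. Cldn5, claudin 5 of tight junctions, had the widest spread of the junction and surface genes, 69.8, 77.5 and 47.6 in Flox against 105, 70.1 and 71.5 in AdIGF1RKO. Its low Flox 3 and high AdIGF1RKO 1 values were 2.22-fold apart, while the other 4 libraries lay between 69.8 and 77.5. Icam2, an adhesion molecule for leukocytes, had means of 30.5 ± 6.58 and 33.6 ± 6.27, and Ptprb, the phosphatase VE-PTP that acts on VE-cadherin and TIE2, had 40.2 ± 4.87 and 46.0 ± 3.10. Both overlapped.

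The log2 differences of transcription factors of endothelial identity were positive in 5 of 5, from 0.08 for Sox18 to 0.27 for Erg. Erg, the ETS factor that maintains endothelial identity, had 25.9, 24.6 and 21.4 scaled CPM in Flox and 28.3, 31.4 and 27.5 in AdIGF1RKO. The lowest AdIGF1RKO value exceeded the highest Flox value, and AdIGF1RKO 2 was the highest. The means were 24.0 ± 2.28 and 29.1 ± 2.05, and the log2 difference of 0.27 (standard error 0.11, 95% interval 0.01 to 0.53) had the smallest unadjusted limma p of the 33 genes, 0.0443, with an adjusted p = 0.998. Fli1, a related ETS factor that blood cells also express, had 25.0 ± 2.56 and 27.8 ± 2.64 with overlap. The SOXF factors Sox7, Sox17 and Sox18, which act in arterial and lymphatic specification, overlapped too. Sox17 had 16.8, 21.9 and 12.0 in Flox and 21.5, 19.7 and 16.2 in AdIGF1RKO, and its highest library was Flox 2.

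Receptors for angiogenic signals were mixed, with 5 of 7 positive, a median log2 difference of 0.01 and 1 of 7 with separate groups. Notch4, a Notch receptor found mainly in endothelium, had 11.9, 12.8 and 8.23 scaled CPM in Flox and 13.4, 16.2 and 14.6 in AdIGF1RKO. The groups did not overlap, and the log2 difference of 0.41 (standard error 0.18, 95% interval -0.01 to 0.84) was the largest of the 33 genes on the log2(scaled CPM + 1) scale. With 0.1 added in place of 1, Esm1 was above it, at 0.48 against 0.45 for Notch4. Notch4 did not pass at an unadjusted limma p of 0.0536. Without Flox 3, its lowest library, the Notch4 difference was 0.24. Kdr, the main signalling receptor for VEGF-A (VEGFR2), was nearly level, with 46.9, 50.5 and 47.1 in Flox and 51.4, 46.5 and 47.8 in AdIGF1RKO. Its 6 libraries varied by 4.26% (coefficient of variation), the least of the 33 genes, and the 95% interval of its difference ran from -0.19 to 0.22. Flt1, the decoy-like VEGF receptor VEGFR1, had 40.5, 45.8 and 43.5 in Flox and 43.1, 43.2 and 39.5 in AdIGF1RKO, a difference of -0.04 with an interval from -0.26 to 0.18. Tek, the angiopoietin receptor TIE2, was likewise close to 0 at -0.04, with 49.0 ± 5.75 in Flox and 47.9 ± 8.58 in AdIGF1RKO. Its partner Tie1 had 35.3 ± 1.32 and 38.98 ± 5.32, and AdIGF1RKO 1 alone lay well above the rest at 45.0. Among the receptors for BMP9 and BMP10, Acvrl1 (ALK1) had 41.7 ± 4.35 and 41.7 ± 4.65, and its co-receptor Eng (endoglin) had 55.2 ± 6.36 and 60.9 ± 6.68.

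Promoter sequences of 5 of these genes are shown because they include the genes with the largest separation of groups (Robo4, Notch4, Erg) and the VEGF receptors that were level (Kdr, Flt1). RefSeq promoters of build GRCm38.p6 were found for 18 of the 34 genes, each from 250 bases before to 50 bases after the first listed start and read 5′ to 3′ along the gene. The windows are chr9:37401722-37402021 (plus strand) for Robo4, chr17:34564045-34564344 (plus) for Notch4, chr16:95586544-95586843 (minus) for Erg, chr5:75978406-75978705 (minus) for Kdr and chr5:147725962-147726261 (minus) for Flt1. Capitals mark the motif AGGAAG or its reverse complement CTTCCT, letters that contain the GGAA core of ETS binding sites.
Robo4: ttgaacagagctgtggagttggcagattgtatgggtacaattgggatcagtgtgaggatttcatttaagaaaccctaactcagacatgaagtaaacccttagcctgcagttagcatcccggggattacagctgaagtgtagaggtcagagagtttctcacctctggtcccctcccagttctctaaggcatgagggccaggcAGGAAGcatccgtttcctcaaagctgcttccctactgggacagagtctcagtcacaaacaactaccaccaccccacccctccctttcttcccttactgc
Notch4: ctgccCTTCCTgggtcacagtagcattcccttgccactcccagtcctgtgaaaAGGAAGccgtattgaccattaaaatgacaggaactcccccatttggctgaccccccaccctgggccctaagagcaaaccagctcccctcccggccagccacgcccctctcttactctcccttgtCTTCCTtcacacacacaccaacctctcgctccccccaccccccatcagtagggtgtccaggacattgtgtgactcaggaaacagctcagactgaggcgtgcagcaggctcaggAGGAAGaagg
Erg: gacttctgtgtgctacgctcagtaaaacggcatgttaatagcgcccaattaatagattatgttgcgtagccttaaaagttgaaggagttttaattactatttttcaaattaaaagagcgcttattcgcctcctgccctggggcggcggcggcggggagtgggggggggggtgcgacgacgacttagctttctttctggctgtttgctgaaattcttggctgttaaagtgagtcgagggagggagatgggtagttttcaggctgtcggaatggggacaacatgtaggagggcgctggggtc
Kdr: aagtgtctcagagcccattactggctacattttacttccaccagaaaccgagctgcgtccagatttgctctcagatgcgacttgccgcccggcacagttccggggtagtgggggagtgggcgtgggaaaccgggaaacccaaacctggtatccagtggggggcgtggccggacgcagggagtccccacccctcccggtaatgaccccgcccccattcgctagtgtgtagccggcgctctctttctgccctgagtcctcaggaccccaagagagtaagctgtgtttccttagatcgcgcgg
Flt1: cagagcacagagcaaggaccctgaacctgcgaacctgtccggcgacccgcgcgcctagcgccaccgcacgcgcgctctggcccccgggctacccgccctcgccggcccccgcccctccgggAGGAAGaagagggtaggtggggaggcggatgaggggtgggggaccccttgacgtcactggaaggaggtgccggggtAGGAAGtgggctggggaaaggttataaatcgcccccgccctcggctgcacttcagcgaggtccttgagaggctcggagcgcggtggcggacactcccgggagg
Robo4 held 1 match, at position -49 from the start, Notch4 held 4 and Flt1 held 2, while Erg and Kdr held none in these windows. AGGAAG, searched on both strands, was in 9 of the 18 promoters (50%) and in 35.1% of all 27025 promoters of the table. AACAAT, which resembles SOX sites, was in 3 of 18 (10.9% of all promoters), and AGATAA, which resembles GATA sites, was in 1 of 18 (11.4% of all). Matches were present in a gene with separate groups (Notch4) as well as in a level gene (Flt1). They describe letters in these windows and not bound sites.

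Secreted and signalling proteins were positive in 4 of 4 genes. Nos3, the endothelial nitric oxide synthase, had 21.2, 22.3 and 21.7 scaled CPM in Flox and 23.0, 23.6 and 27.3 in AdIGF1RKO. The Flox libraries were tight and the groups did not overlap, with a log2 difference of 0.17 (standard error 0.10). Vwf, the clotting factor stored in endothelial granules and platelets, had 35.1, 33.7 and 33.4 in Flox and 56.4, 32.96 and 36.4 in AdIGF1RKO. Only AdIGF1RKO 1 stood apart, and AdIGF1RKO 2 was the lowest of all 6. Egfl7, a matrix protein secreted by endothelium, had 125, 153 and 89.9 in Flox and 158, 144 and 134 in AdIGF1RKO, where the Flox spread (SD 31.6) covered the difference between the means. Rasip1, a regulator of vessel lumen formation, had 16.5 ± 2.18 and 17.3 ± 2.94.

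**Figure D3:**
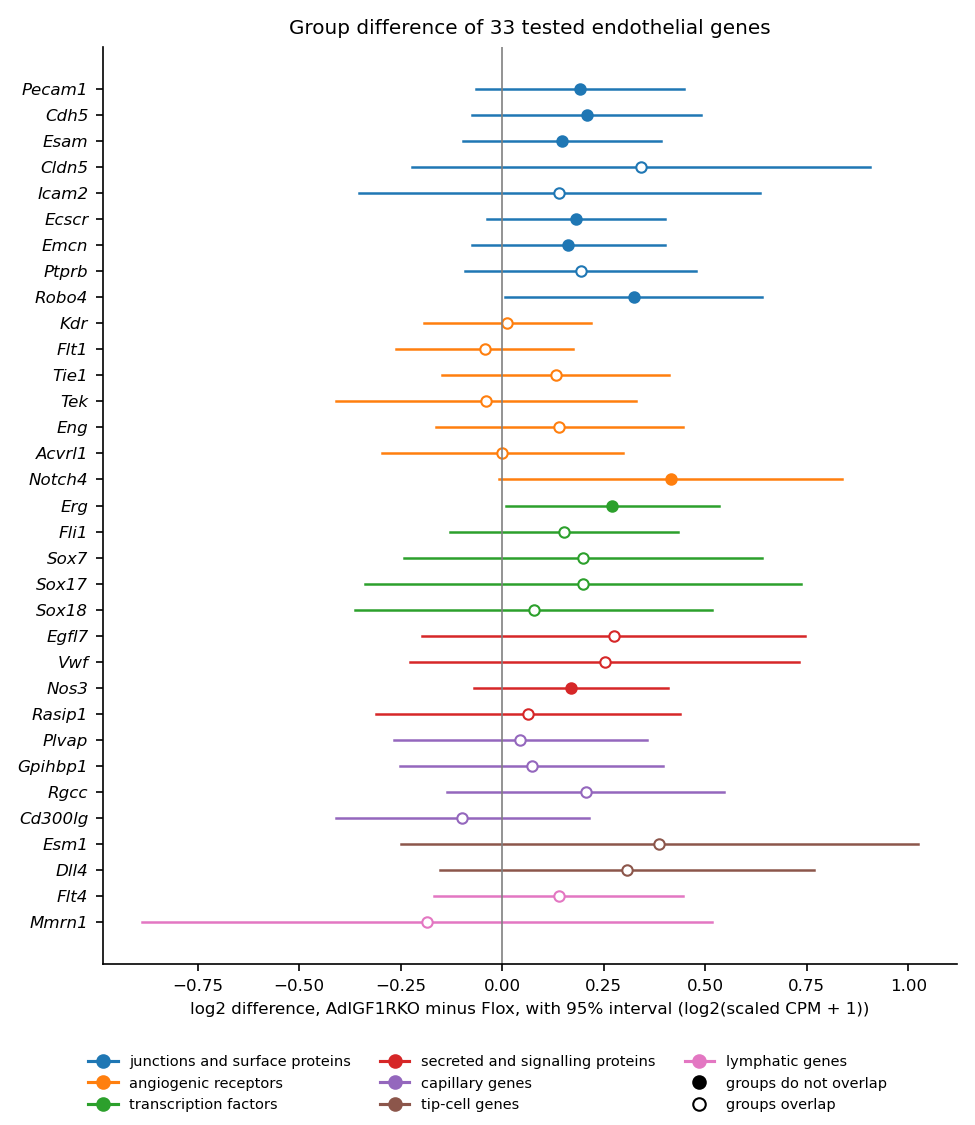
Log2 difference between AdIGF1RKO and Flox (point) with its 95% limma interval (line) for the 33 tested endothelial genes, coloured by role, on the log2(scaled CPM + 1) scale. Filled points mark the 9 genes whose groups do not overlap. For 31 of the 33 genes the interval covers 0, and the exceptions are Robo4 and Erg.

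Capillary genes were positive in 3 of 4 with a median log2 difference of 0.06, and 0 of 4 had separate groups. Gpihbp1, which carries lipoprotein lipase across capillary endothelium, had 312, 387 and 278 scaled CPM in Flox and 355, 330 and 333 in AdIGF1RKO. The AdIGF1RKO values lay inside the Flox range, and the interval of the difference was -0.25 to 0.40. Cd300lg, a surface receptor of capillary endothelium, had 131, 158 and 121 in Flox and 140, 115 and 127 in AdIGF1RKO. It was 1 of 4 genes with a negative difference (-0.10), the others being Flt1, Tek and Mmrn1, and without Flox 2 the Cd300lg difference was 0.0090. Plvap, the protein of fenestral diaphragms, had 68.9 ± 8.19 and 71.1 ± 8.43. Rgcc, a cell cycle regulator that marks capillary cells, had 327, 423 and 304 in Flox and 420, 410 and 375 in AdIGF1RKO, with Flox 2 the highest of all.

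Tip-cell genes were positive but scattered. Esm1, a proteoglycan secreted by tip cells, had 2.87, 2.21 and 3.81 scaled CPM in Flox and 2.87, 3.89 and 6.07 in AdIGF1RKO. Only AdIGF1RKO 3 stood well above Flox, and AdIGF1RKO 1 equalled Flox 1 to 3 digits. The log2 difference was 0.39 (standard error 0.26, 95% interval -0.25 to 1.02), and without AdIGF1RKO 3 it was 0.15. Each Esm1 value rests on 155 to 385 reads. Dll4, the Notch ligand of tip and arterial cells, had 7.98, 9.09 and 7.501 in Flox and 11.8, 12.3 and 7.61 in AdIGF1RKO. There AdIGF1RKO 1 and 2 were high and AdIGF1RKO 3 lay within the Flox range, so the tip-cell genes were highest in different libraries. The Dll4 difference was 0.31 (standard error 0.19), and it was 0.51 without AdIGF1RKO 3.

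Lymphatic genes showed no common direction. Prox1, which specifies lymphatic endothelium, was listed with only 14 to 31 reads per library, or 0.353, 0.371 and 0.290 scaled CPM in Flox and 0.402, 0.410 and 0.362 in AdIGF1RKO. The groups overlapped, with means of 0.338 ± 0.0424 and 0.391 ± 0.0255. Flt4, the VEGF-C receptor VEGFR3, had 3.79, 3.42 and 3.34 in Flox and 4.25, 4.14 and 3.53 in AdIGF1RKO, a log2 difference of 0.14 with overlap. Mmrn1, multimerin of lymphatic endothelium and platelets, had 4.14, 3.83 and 1.89 in Flox and 3.20, 3.27 and 1.72 in AdIGF1RKO. Its 2 low libraries were Flox 3 and AdIGF1RKO 3, the libraries rich in muscle RNA, and within each group the other libraries were close. The Mmrn1 difference of -0.19 had a 95% interval from -0.89 to 0.52. Markers of megakaryocytes and platelets, 5 of 8 listed in the table, summed to 228 scaled CPM in Flox 3 and 240 in AdIGF1RKO 3, the lowest of the 6 libraries, and to between 276 and 363 in the others. Their part in the Mmrn1 values was not tested.

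Levels can be compared between genes only per length, so scaled CPM were divided by the exon length of the GENCODE M21 annotation. On that scale the capillary genes Rgcc, with 410 scaled CPM per kilobase, and Gpihbp1, with 130, were the highest of the 34. Cldn5 (52.0) and Cd300lg (48.3) came next, and the capillary gene Plvap (35.2) lay below Egfl7 (37.4) and Esam (36.9). Cdh5 (27.6) and Pecam1 (25.8) were of like level. Among the receptors Eng (14.3), Tek (10.3) and Acvrl1 (9.78) were above Kdr (5.35) and Flt1 (3.15). Erg and Fli1, at 7.66 and 7.58, did not differ beyond their spread over the 6 libraries (coefficients of variation 12.9% and 10.6%). The lowest were the lymphatic genes Mmrn1 (0.513), Flt4 (0.455) and Prox1 (0.0435), below the tip-cell genes Dll4 (2.43) and Esm1 (1.73).

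The 7 genes Pecam1, Cdh5, Tie1, Esam, Erg, Ptprb and Robo4 were used as a core against which the other endothelial genes were set within each library, which cancels any factor common to all genes of a library. The core level, the geometric mean, was 56.0, 56.4 and 49.2 scaled CPM in Flox and 67.7, 60.7 and 59.1 in AdIGF1RKO. Pecam1, Cdh5, Esam, Erg and Robo4 of this core are themselves genes with all AdIGF1RKO libraries above Flox, so a level gene falls relative to it. Relative to this core, Cd300lg, Flt1, Tek, Acvrl1 and Kdr were lower in all 3 AdIGF1RKO libraries than in all 3 Flox libraries, by log2 values of -0.31, -0.26, -0.25, -0.21 and -0.20, and 0 of 34 genes were higher without overlap. Kdr, for example, had log2 ratios to the core of -0.26, -0.16 and -0.06 in Flox and -0.40, -0.38 and -0.31 in AdIGF1RKO. The same separation held for 25.4% of all tested genes, whose median was -0.23, so 5 of 34 is a smaller share than that of all genes, and the 5 values lie near that median. With Erg and Robo4 left out of the core, 3 genes were lower without overlap, against 18.9% of all tested genes. Without Flox 3 and without AdIGF1RKO 1 there were 8 and 11 lower, against 30.9% and 29.0% of all tested genes. Without AdIGF1RKO 1, 3 genes were also higher without overlap, against 2.69% of all tested genes. Of 27 genes outside the core 19 were lower and 8 higher relative to it, up to 0.28 for Esm1 and down to -0.46 for Mmrn1. No test was made on these ratios.

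**Figure D4:**
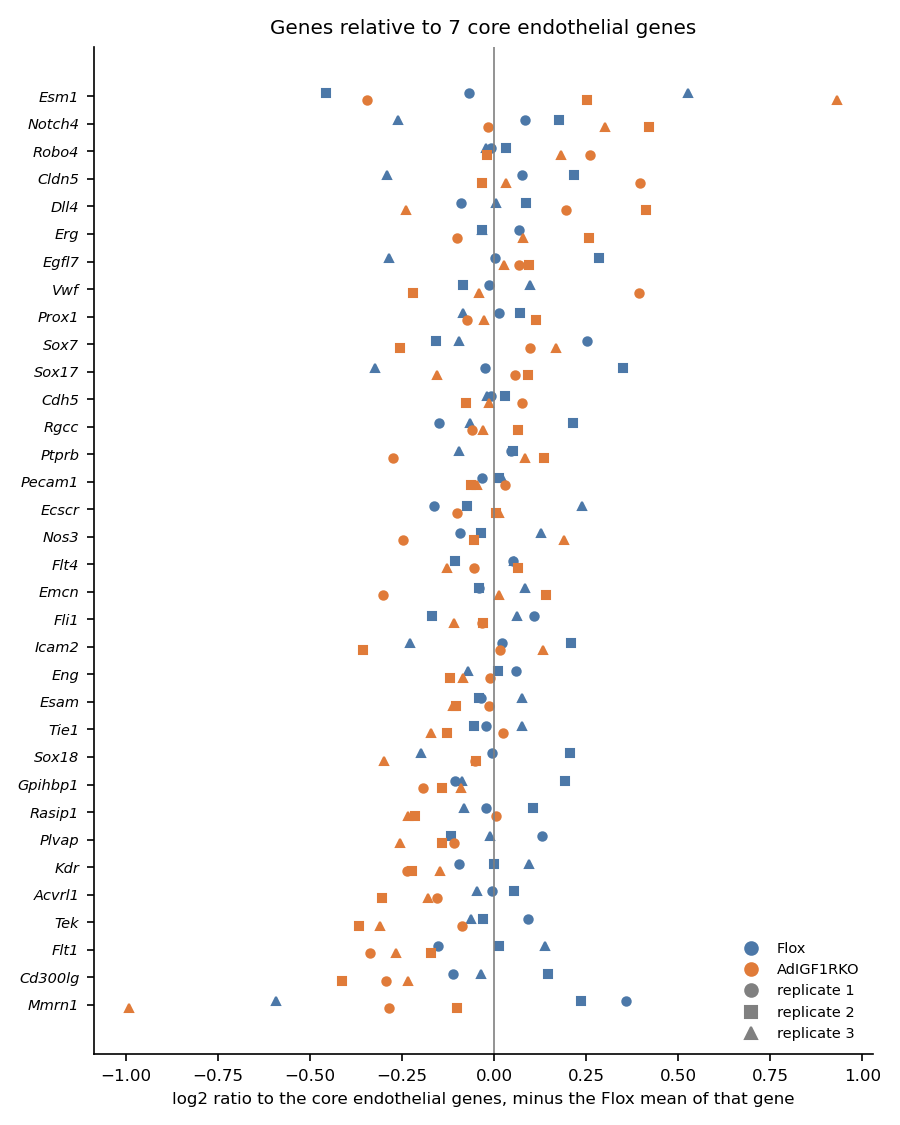
Log2 ratio of each endothelial gene to the geometric mean of the core genes in the same library, minus the Flox mean of that gene, for Flox (blue) and AdIGF1RKO (orange), with marker shape giving the replicate number. A core gene is set against the other core genes. The groups are separate for Cd300lg, Flt1, Tek, Acvrl1 and Kdr, near the bottom, and for no gene near the top.

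Further endothelial genes gave a mixed picture, and 0 passed the limma test in any list. Of 22 other pan-endothelial genes 15 were positive with a median of 0.05. Cd93, a lectin-like receptor of endothelium, had 38.5 ± 4.02 and 49.9 ± 7.54 scaled CPM and a log2 difference of 0.36, Thsd1 had 3.56 ± 0.130 and 4.41 ± 0.357, and Clec14a had 4.50 ± 0.544 and 5.46 ± 0.123, each without overlap. Arterial genes were positive in 9 of 12 with a median of 0.10, and their smallest p belonged to the connexin gene Gja4 with 9.90 ± 1.91 and 11.8 ± 0.959, Efnb2 with 8.52 ± 0.963 and 9.85 ± 0.905, and Unc5b with 3.39 ± 0.588 and 4.06 ± 0.143. Venous genes were positive in 4 of 8 with a median of -0.02, and the 3 named by the smallest p all overlapped: Lrg1 had 247 ± 46.6 and 264 ± 24.2, Vwa1 had 14.4 ± 2.45 and 12.8 ± 1.65, and Sele, E-selectin, had 1.33 ± 0.527 and 0.965 ± 0.175. Other capillary and fat-handling genes were positive in 6 of 11 with a median of 0.06. Of these Cav1, caveolin 1, which adipocytes also express, had 1924 ± 348 and 2351 ± 101 without overlap, and Car4 had 77.7 ± 11.2 and 67.3 ± 10.0 while Kcne3 had 4.36 ± 1.15 and 3.47 ± 1.25.

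Other tip-cell and sprouting genes were positive in 10 of 12 with a median of 0.23. They include Apln, the apelin gene named in the series title, with 2.93 ± 0.586 and 8.47 ± 1.04 scaled CPM, and Pgf, placental growth factor, with 3.70 ± 0.650 and 6.84 ± 1.40. Both had separate groups and neither passed adjustment (limma adjusted p = 0.998 each). DESeq2 called Apln and not Pgf. Nid2, nidogen 2 of basement membranes, had 42.7 ± 4.55 and 50.5 ± 4.28. Aplnr, the apelin receptor of endothelial cells, had 12.2 ± 1.09 and 18.9 ± 3.90 (log2 difference 0.57) and belongs to a list of endothelial ligands and partners in which 7 of 12 were positive with a median of 0.03. Other lymphatic genes leaned the other way, with 3 of 11 positive and a median of -0.15. Nrp2, a co-receptor of VEGF-C, had 21.1 ± 1.58 and 24.4 ± 1.79 without overlap, and Fgl2 had 55.4 ± 9.35 and 49.5 ± 6.38. Stab2 had 2.76 ± 3.15 and 0.941 ± 0.772, and its Flox mean rests on Flox 3, where it was 6.40 against 0.947 and 0.941 in the other two.

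**Figure D5:**
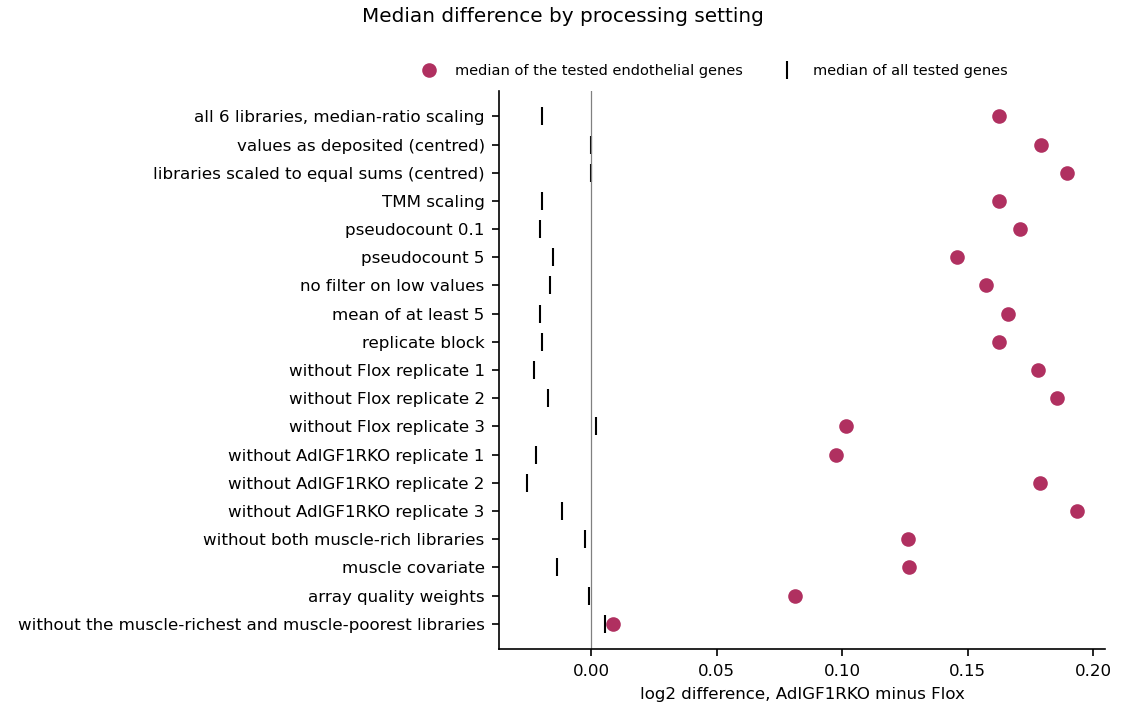
Median log2 difference of the tested endothelial genes (points) and of all tested genes (ticks) under each processing setting, where "centred" means relative to the median of all tested genes. The median lies between 0.08 and 0.19 in all settings but the last, where leaving out Flox 3 and AdIGF1RKO 1 brings it to 0.01, the level of all tested genes.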

How the data were processed

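RNA of inguinal white fat from 3 Flox and 3 AdIGF1RKO mice was sequenced after poly(A) selection with a stranded kit, per the labels' protocols. The authors deposited 1 table of signal per gene, named FPKM. Within a tolerance of 0.5, 100% of its values were a whole number of reads times 1000000000 over 1 divisor per library, so reads were recovered. The table holds no 0 and starts at 1 read. The submitters' processing notes name build GRCm39. No aligner, counter or annotation is given in the sources used here. Depth sets the step: 1 read is 0.0130 to 0.0207 scaled CPM.

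Reads were scaled by median ratio, and the 12993 genes with a mean of at least 1 were tested on log2(value + 1) with limma (version 3.58.1, R version 4.3.3, intensity trend, two-sided, Benjamini-Hochberg threshold 0.05). edgeR (version 4.0.16) and DESeq2 (version 1.42.0) ran on the recovered reads of the same genes as alternatives, next to other scalings, pseudocounts, filters, left-out libraries, a muscle covariate and library weights. Nothing in the labels says more than that the libraries come from mice of each group, so p-values measure the spread between these libraries. On simulated counts for this comparison (12931 genes) limma recovered 100% of 2-fold and 48.0% of 1.5-fold changes. The simulation gave every gene the same dispersion and no difference in muscle RNA between libraries. Its shares therefore do not give the power in the real libraries, where limma did not call Apln at a log2 difference of 1.27.

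The members and lists were chosen with earlier results of these data known, among them Erg and Robo4 as examples of higher genes. The shares of positive and of separate genes, and the core with these 2 genes, are thus not independent of the difference. Pecam1, Cdh5 and Esam of the core had separate groups as well, so leaving out Erg and Robo4 does not remove this dependence. Every member is named. Values of all libraries are given for Pecam1, Cdh5, tip-cell and lymphatic genes, for those with an unadjusted p under 0.05 or separate groups and for the extremes; for other members they are given where they show the spread. From each further list up to 3 genes with the smallest unadjusted p are named. Replicate numbers are shared by both groups. Deviations from the group means of same-numbered libraries correlated at 0.35, 0.35 and 0.83 across genes, which are not independent replicates. Differently numbered libraries reached 0.70 (Flox 2 with AdIGF1RKO 1) and 0.33 (Flox 1 with AdIGF1RKO 2), so the check is not specific to the numbers. The value of 0.83 belongs to Flox 3 with AdIGF1RKO 3, the libraries rich in muscle RNA. The main fit held the group only and no pairs. Because all same-numbered pairs were over 0.1, a fit with the number as a block was run as an alternative.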

Additional observations from a re-analysis of the deposited data

How the results depend on the processing

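Over 20 alternative settings, 0 endothelial genes were called in any. The pairing of replicate numbers as a block left the median at 0.16 with 29 of 33 positive and changed no call. It had 3 of the 33 genes and 582 of all 12993 tested genes at an unadjusted limma p under 0.05. In the main fit these counts were 2 and 385. Without a single library the median lay between 0.10 and 0.19, the positive count between 21 and 31, and the genes with separate groups between 9 and 13 (6.63% to 9.6% of all genes). Relative to the core, between 5 and 11 of 34 genes were then lower without overlap (29.0% to 40.7% of all genes). Between 0 and 3 were higher without overlap (0.924% to 2.69% of all genes), the 3 without AdIGF1RKO 1. The median was 0.18 with the values as deposited and 0.19 with equal sums, both relative to all genes; uncentred it was 0.01 with 18 positive (14.8% of all genes) and 0.28 with 32 positive (72.4%), and 0 (0.954%) and 6 (5.86%) genes had separate groups. With array quality weights the median was 0.08 with 25 positive, and without both muscle-rich libraries 0.13 with 27 positive. With the core without Erg and Robo4, 3 genes were lower relative to it without overlap (18.9% of all genes). Without Flox 3 and AdIGF1RKO 1 the median was 0.0089 with 18 positive; this setting, the other core, the core without single libraries and the separate groups by setting were chosen after seeing the data. Of 33 genes, 18 kept their sign under every setting (deposited values and equal sums taken relative to all genes); the rest changed it in at least 1, and the cause was not tested. In that last setting Cldn5 was at -0.054, Icam2 -0.13, Kdr -0.044, Tie1 -0.0041, Eng -0.044, Acvrl1 -0.17, Sox17 -0.10, Sox18 -0.17, Rasip1 -0.16, Plvap -0.11, Gpihbp1 -0.068, Lrg1 -0.042 and Stab2 0.046. Without both muscle-rich libraries Icam2 was at -0.092, Flt1 0.0031, Acvrl1 -0.063, Gpihbp1 -0.021 and Lrg1 -0.072. With the muscle covariate Kdr was at -0.0073, Acvrl1 -0.051, Sox18 -0.031, Rasip1 -0.017 and Plvap -0.0021. With array quality weights Acvrl1 was at -0.064, Sox18 -0.034, Rasip1 -0.015, Plvap -0.094 and Vwa1 0.015. Leaving out 1 library at a time gave ranges that cross 0 for Kdr from -0.029 to 0.046, Tek from -0.18 to 0.036, Cd300lg from -0.18 to 0.0090, Icam2 from -0.032 to 0.30, Acvrl1 from -0.085 to 0.064, Sox17 from -0.013 to 0.40, Sox18 from -0.079 to 0.21, Rasip1 from -0.065 to 0.14, Plvap from -0.042 to 0.14, Gpihbp1 from -0.034 to 0.20, Lrg1 from -0.019 to 0.25 and Mmrn1 from -0.45 to 0.028. Apln, called by DESeq2 with a log2 difference of 1.52, was not called by any other test.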

Other observations

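Several lymphatic genes were lowest in the libraries rich in muscle RNA. Of the 15 lymphatic genes in the table (Prox1, Flt4, Mmrn1 and 12 more), 6 had their lowest values in Flox 3 and AdIGF1RKO 3, below all of the other 4 libraries, against 15.0% of all tested genes and 7 of 31 tested blood endothelial genes. They were Mmrn1, Lyve1, Pdpn, Ccl21a, Fgl2 and Sema3d. Lyve1, a hyaluronan receptor of lymphatic endothelium that some macrophages also carry, had 86.0, 84.8 and 36.9 scaled CPM in Flox 1, 2 and 3 and 59.96, 63.1 and 43.3 in AdIGF1RKO 1, 2 and 3. Pdpn, podoplanin, had 30.9, 28.7 and 19.5 in Flox and 24.4, 24.9 and 20.04 in AdIGF1RKO. Tbx1 and Stab2 went the other way, with their highest values in the same 2 libraries, as had 16.8% of all tested genes. These counts were made after the values had been seen and were not tested, nor was the part of muscle RNA in them. Low values there were not particular to lymphatic genes. Median deviations in Flox 3 and AdIGF1RKO 3 were -0.37 and -0.29 for macrophage, -0.18 and -0.16 for fibroblast and -0.41 and -0.15 for lymphocyte markers. They were -0.21 and -0.004 for the further lymphatic genes. Of these 2 libraries, pericyte and adipocyte markers were low in Flox 3 only, with 0.001 and 0.02 in AdIGF1RKO 3. Both lists were also low in AdIGF1RKO 2, at -0.14 and -0.14.

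Epithelial markers, 3 of 8 listed in the table, summed to 14.4, 2.62 and 3.05 scaled CPM in Flox and 9.998, 14.1 and 3.62 in AdIGF1RKO. Thus 3 libraries, Flox 1, AdIGF1RKO 1 and AdIGF1RKO 2, were above the other 3, which is not the order of the endothelial genes.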
